A study of Rhodotorula toruloides with 9 samples.

Results

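A group of 91 genes of the basidiomycete yeast R. toruloides was low on d-glucose (d-glc) alone among 3 carbon sources, with high and similar transcript levels on d-galacturonic acid (d-galUA) and on glycerol. The genes were selected on their measured levels. A gene was kept where its mean FPKM (read abundance per gene length and per amount of mapped reads) was at least 10 on d-galUA and on glycerol, where both means were at least 3 times the d-glc mean, and where these 2 means lay less than 2-fold apart. Of 8578 gene models in the tables, the 8486 with a numbered identifier were considered. A mean of at least 10 on both sources was reached by 5465 models, of which 246 also reached 3 times the d-glc mean on d-galUA, 136 did so on glycerol as well, and 91 met the last condition. The same rule turned round gave 47 genes low only on d-galUA and 46 genes low only on glycerol. Since the rule used these levels and their differences, they are given below as a description, with no test.

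The mRNA of strain IFO 0880 was sequenced after growth in yeast nitrogen base medium (YNB) that held a carbon source at 2%, either d-galUA or glycerol or d-glc, in 3 libraries per source. The comparisons ask which transcripts differ between growth on d-galUA, on glycerol and on d-glc. By the methods of the study, all cultures were started from a single washed culture grown in the rich medium YPD. The spread between libraries is thus that between cultures of 1 inoculum. The methods have them taken when stationary phase began, at an optical density of 2.0. The labels and the results of the study place the sampling in log phase. In the study's fitness cultures the density at that onset differed between sources, so an equal density need not mean an equal growth stage. Mapped reads per library, worked out from the deposited coverage and FPKM, lay between 25.8 M and 51.9 M with a median of 35.2 M.

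Yeasts use d-glc through glycolysis, whereas glycerol enters metabolism as a triose phosphate and d-galUA, the main sugar acid of pectin, is broken down through a reductive route to pyruvate and glycerol. In Saccharomyces cerevisiae, many genes for the uptake and oxidation of other carbon sources have low transcript levels as long as d-glc is present. The lactate and pyruvate permease gene JEN1 and the acetyl-CoA synthetase gene ACS1 are textbook examples of it. This is background from another yeast, and whether any such regulation acts on the 91 genes was not tested.

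A single library goes against its label. The labels give 4 d-glc and 2 glycerol libraries, whereas the means in the annotation table of the study are those of 3 libraries each. Among all 84 sets of 3 libraries, the set of Glycerol 1, Glycerol 2 and the library labelled D-glucose 4 gave the table's glycerol means to within a median of 5.96e-05% over 1999 genes, and the next best set differed by 9.83%. Over all genes, the log2(FPKM + 1) values of the library labelled D-glucose 4 correlated with those of Glycerol 1 and 2 at r = 0.987 to 0.988, with D-galUA 1 to 3 at 0.903 to 0.907 and with D-glucose 1 to 3 at 0.876 to 0.878. These correlations run across genes, which are not independent replicates. The library labelled D-glucose 4 is therefore counted with glycerol, as the selection rule has it. The main counts are also given with the labels as they stand and without it. With the labels as they stand the rule found 13 genes, all among the 91, and without the library it found 89, of which 86 were among the 91.

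The rule counted the library labelled D-glucose 4 with glycerol, so its values in the 91 genes were largely set by the choice and are a description. This library was above each of D-glucose 1 to 3 in 91 of 91, at a median of 4.66 times and at least 2.11 times the highest of D-glucose 1 to 3. Relative to the mean of Glycerol 1 and 2, its values had a median ratio of 0.982, and 86 genes lay within 1.5-fold of that mean. With this library counted as d-glc, the lower of the d-galUA and glycerol ratios to d-glc fell to a median of 2.22. It lay between 1.36 and 5.07 and was at least 3 in 13 of the 91 genes. The conditions of the rule largely set a value above 1 here, so none is read as a result.

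The 91 genes held 2.62%, 2.60% and 2.39% of all transcripts (TPM, an abundance scaled to an equal total in each library) in the d-galUA libraries, 2.79%, 3.07% and 2.79% in the glycerol libraries and 0.340%, 0.405% and 0.324% in the d-glc libraries. The means were 2.54% ± 0.128 on d-galUA, 2.88% ± 0.161 on glycerol and 0.356% ± 0.0428 on d-glc (SD, n = 3 each). With the labels as they stand, the d-glc mean was 0.965%. A single gene, RTO4_9339, made up 20.6% of the transcripts of the group on d-galUA, and without it the shares were 2.02% ± 0.107 on d-galUA, 2.34% ± 0.0651 on glycerol and 0.323% ± 0.0430 on d-glc.

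The median gene of the group was at 48.7 FPKM on d-galUA, 58.3 FPKM on glycerol and 7.60 FPKM on d-glc. On d-glc, 30 genes had a mean under 5 FPKM and 8 had a mean of at least 100 FPKM, so that the group held genes of low and of high d-glc levels. No gene was listed at 0 in any library. The fewest reads behind a d-glc value of the group were at most 42.5 in a library, for RTO4_10711, an upper limit because the gene's span can include introns. Whichever of the ratios of d-galUA and glycerol to d-glc was smaller, here called the lower ratio, had a median of 4.88. It reached at least 5 in 45 genes, at least 10 in 17, at least 20 in 9, at least 50 in 5 and at least 100 in 3.

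In 91 of 91 genes all 6 libraries of d-galUA and glycerol lay above all 3 libraries of d-glc, a pattern shown by 15.3% of the 8479 genes with a value above 0. All 91 also passed the calling threshold of limma (adjusted p of at most 0.05 over all genes, means at least 2-fold apart, the higher mean at least 5 FPKM) as exceeding their d-glc level, both on d-galUA and on glycerol. Over all genes tested, 8.24% were called higher and 7.44% lower in the comparison of d-galUA with d-glc, and 9.0% were called higher and 9.81% lower in that of glycerol with d-glc. The rule selected on these contrasts, so nothing is read from the counts of members. The group's median log2 difference from d-glc was 2.33 on d-galUA and 2.41 on glycerol, beside -0.00 and 0.02 over all genes tested.

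**Figure D1:**
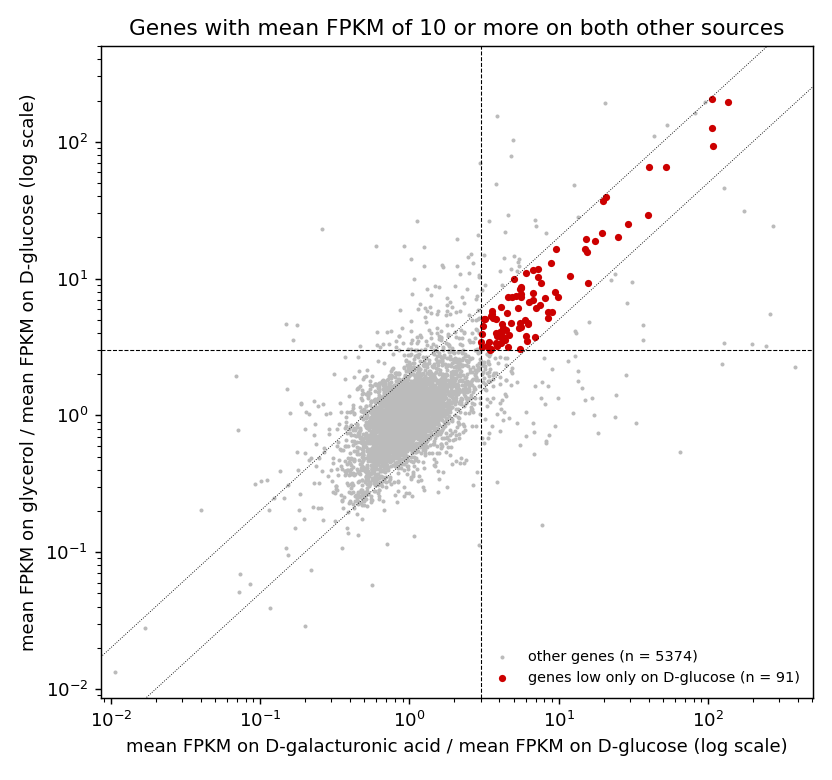
Ratio of the mean FPKM on d-galUA (horizontal, log scale) and on glycerol (vertical, log scale) to the mean FPKM on d-glc, for the 5465 genes with a mean of at least 10 FPKM on both sources. The 91 selected genes are red, dashed lines mark a ratio of 3 and dotted lines a 2-fold gap between d-galUA and glycerol. The lower ratio of the red points runs between 3.00 and 136, and 3 of them lie above 100 on both axes.

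**Figure D2:**
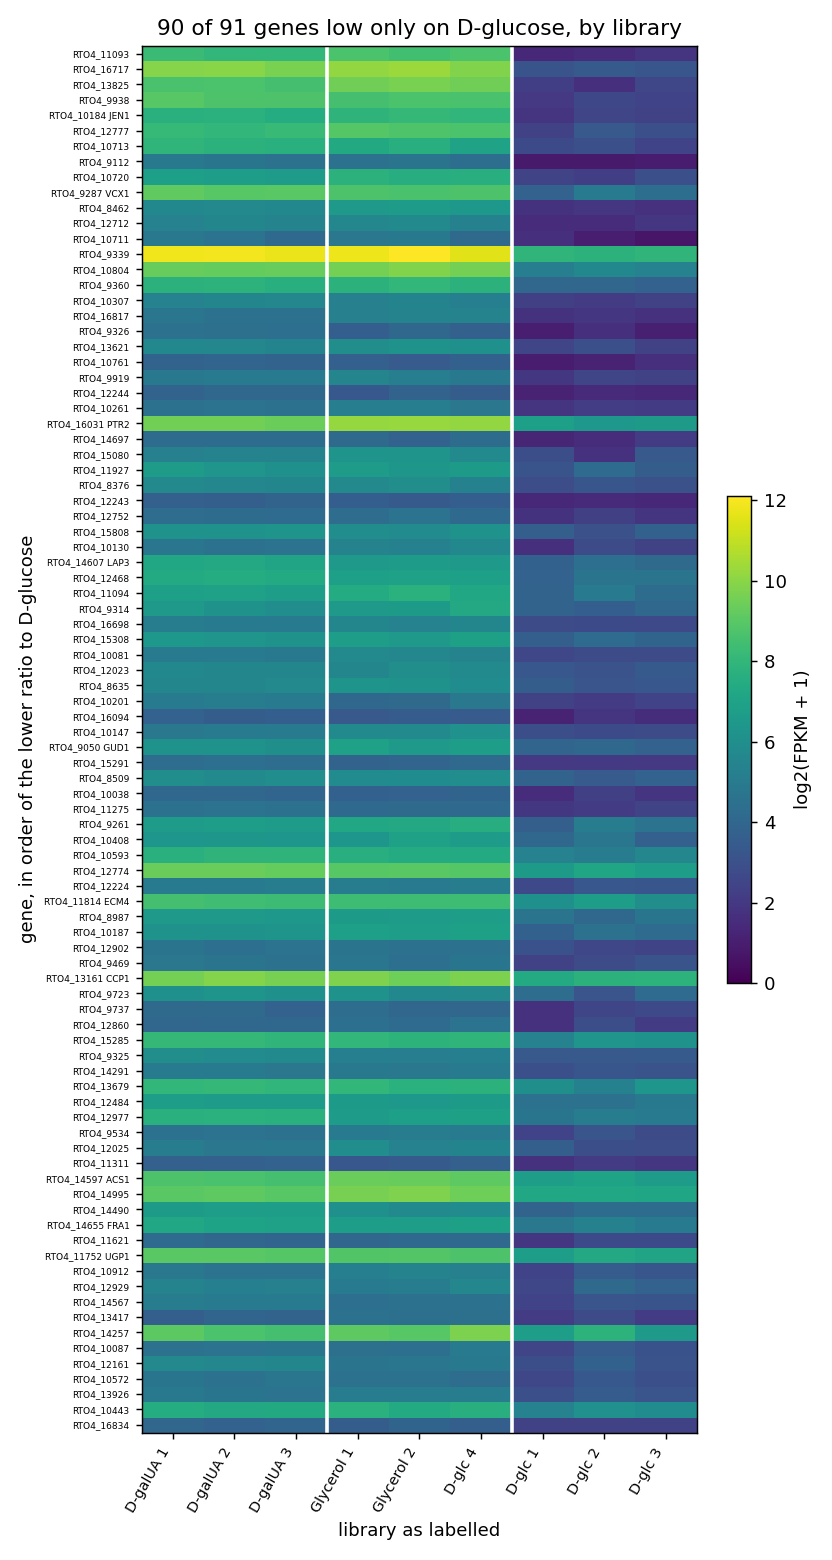
Level of 90 of the 91 genes (rows, in order of the lower ratio) in each of the 9 libraries (columns, named as labelled), as log2(FPKM + 1). White lines part d-galUA, glycerol and d-glc, and the library labelled D-glucose 4 stands with glycerol. The 3 columns on the right are darker in every row, and the column of the library labelled D-glucose 4 looks like those of Glycerol 1 and 2.

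Of the 91 genes, 45 had a row in the annotation table as used here, which held every numbered gene with a d-galUA mean of at least 50 FPKM and 18 others. The other 46 genes were below that level and have no annotation here. Among the 45, an ortholog in S. cerevisiae was named for 11 and none for 34, whereas 1224 of all 1999 annotated genes had one. The genes with an ortholog are thus a minority of the 45, and for the other 46 it is not known here. The roles given below are those known in S. cerevisiae. In each triplet of values, d-galUA is in the order D-galUA 1 to 3, glycerol in the order Glycerol 1, Glycerol 2 and the library labelled D-glucose 4, and d-glc in the order D-glucose 1 to 3. Positions are those of the version 4 gene models of IFO0880, and means are given with the SD of 3 libraries.

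Transport proteins were represented by 3 orthologs, among them the gene with the highest lower ratio of those with an ortholog, the permease gene RTO4_10184. RTO4_10184 (scaffold 12, 282501 to 284889, plus strand) is the ortholog of JEN1, a proton symporter for lactate and pyruvate. Its values were 205, 216 and 181 FPKM on d-galUA, 233, 271 and 253 FPKM on glycerol and 2.67, 4.70 and 4.20 FPKM on d-glc. The lowest of the other 6 libraries was far above the highest d-glc library, and the d-galUA and glycerol libraries did not overlap. The means stood at 51.9 times (d-galUA) and 65.3 times (glycerol) the d-glc mean, with log2 differences of 5.39 ± 0.16 on d-galUA and 5.73 ± 0.16 on glycerol (± SE, limma). Counted as labelled, its lower ratio was 3.03.

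RTO4_16031 (scaffold 8, 791381 to 793587, minus strand) is the ortholog of PTR2, which takes up dipeptides and tripeptides. It was among the 5 genes of the group with the highest levels, at 735, 752 and 666 FPKM on d-galUA, 1167, 1229 and 1123 FPKM on glycerol and 115, 87.4 and 96.5 FPKM on d-glc. Every glycerol library was above every d-galUA library, and d-glc was lowest. Relative to d-glc the means were 7.21 times (d-galUA) and 11.8 times (glycerol).

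RTO4_9287 (scaffold 1, 2192735 to 2195602, minus strand) is an ortholog of VCX1, the vacuolar exchanger that carries calcium in against protons. It had 563, 507 and 509.9 FPKM on d-galUA, 429.5, 399.6 and 426 FPKM on glycerol and 13.1, 29.9 and 19.8 FPKM on d-glc. The order of the sources was d-galUA, glycerol, d-glc with no overlap, and the ratios to d-glc were 25.1 times (d-galUA) and 19.97 times (glycerol). Its SD on d-glc was 8.41 FPKM around a mean of 21.0 FPKM, relative to the mean a wider spread than on the other sources.

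Enzymes of central carbon metabolism had lower ratios under 4. RTO4_14597 (scaffold 6, 302311 to 305531, minus strand), listed as the ortholog of ACS1 and ACS2, corresponds to acetyl-CoA synthetase, which turns acetate into acetyl-CoA. It had 419.6, 397 and 378 FPKM on d-galUA, 650.1, 625 and 559 FPKM on glycerol and 105, 129 and 101 FPKM on d-glc. Every glycerol library was above every d-galUA library, with d-glc lowest, and the means were 3.55 times (d-galUA) and 5.46 times (glycerol) the d-glc mean. The gene model overlaps its neighbour on the same strand by 23 bp.

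RTO4_11752 (scaffold 17, 550880 to 554431, minus strand) is the ortholog of UGP1, the enzyme that makes UDP-glucose for glycogen, trehalose and cell wall glucan. Its levels were 509 ± 17.1 FPKM on d-galUA, 452 ± 20.4 FPKM on glycerol and 134 ± 22.8 FPKM on d-glc, or 3.78 times (d-galUA) and 3.36 times (glycerol) the d-glc mean, and 207 bp of its span are shared with a model on the same strand. Both enzymes had a substantial level on d-glc, with means of 112 and 134 FPKM, and thus differed from the permease RTO4_10184, which was at 3.86 FPKM there.

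Genes for peroxide and glutathione metabolism were represented by 2 orthologs. RTO4_13161 (scaffold 3, 1025868 to 1027318, plus strand) is an ortholog of CCP1, the cytochrome c peroxidase that reduces hydrogen peroxide in mitochondria. It had 777, 941 and 804 FPKM on d-galUA, 873, 688 and 836 FPKM on glycerol and 171, 217 and 229.7 FPKM on d-glc, with overlapping d-galUA and glycerol libraries and all 3 d-glc libraries below them. RTO4_11814 (scaffold 18, 122398 to 123930, plus strand) is listed with ECM4 and GTO3, omega-class glutathione transferases. Its means were 346 ± 27.02 FPKM on d-galUA, 328 ± 1.20 FPKM on glycerol and 78.1 ± 23.7 FPKM on d-glc, and D-glucose 2, at 105 FPKM, was above D-glucose 1 and 3, at 66.4 and 62.6 FPKM.

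The remaining orthologs concern the breakdown of peptides and purines. RTO4_14607 (scaffold 6, 327811 to 329884, plus strand) is the ortholog of LAP3, a cysteine aminopeptidase, and had 152, 159.9 and 135 FPKM on d-galUA, 91.3, 102 and 89.1 FPKM on glycerol and 12.5, 20.2 and 17.04 FPKM on d-glc. It was the only gene with an ortholog to lie more than 1.5-fold higher on d-galUA than on glycerol. RTO4_14655 (scaffold 6, 445052 to 447744, plus strand) is an ortholog of FRA1, an aminopeptidase-like protein of iron regulation. It stood at 133 ± 14.3 FPKM on d-galUA, 111 ± 6.82 FPKM on glycerol and 32.6 ± 6.17 FPKM on d-glc. RTO4_9050 (scaffold 1, 1636220 to 1638640, minus strand) is the ortholog of GUD1, guanine deaminase, and had 73.4, 71.9 and 64.9 FPKM on d-galUA, 119, 90.5 and 107 FPKM on glycerol and 14.3, 15.8 and 13.04 FPKM on d-glc, highest on glycerol and with no overlap between sources.

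**Figure D3:**
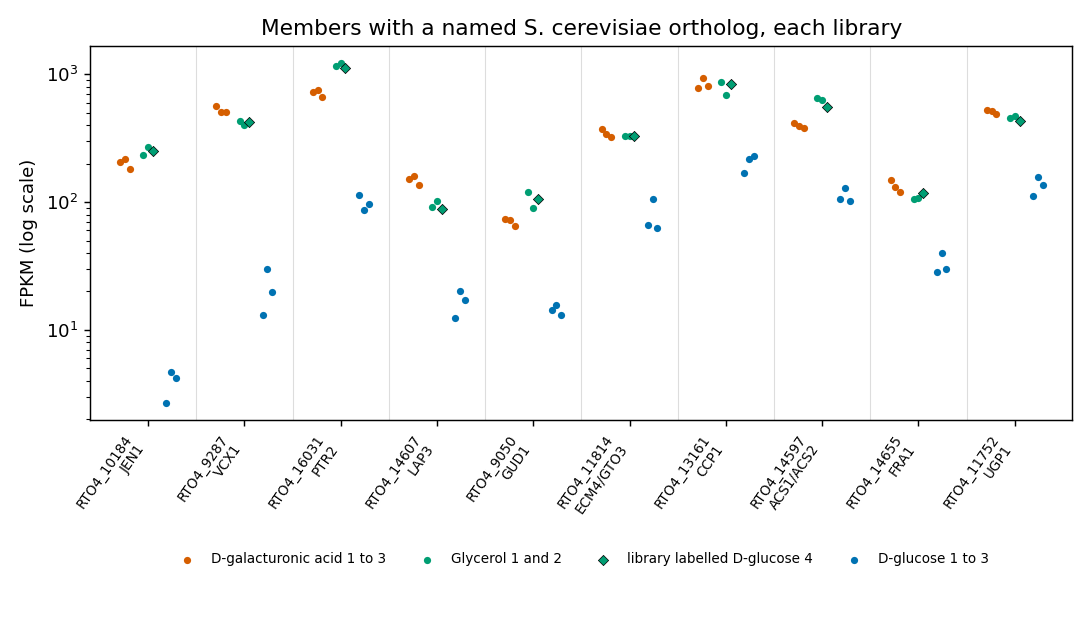
FPKM (log scale) of 10 selected genes with a named S. cerevisiae ortholog in each library, in order of the lower ratio. Orange points are d-galUA, green points glycerol, the green diamond the library labelled D-glucose 4 and blue points d-glc. The gap above the blue points is widest for RTO4_10184 (JEN1) and narrowest for RTO4_14655 (FRA1), and each diamond lies near the green points.

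Among the 15 genes with the highest lower ratio, 2 had an ortholog named, beside 11 of the 91. Genes without a row in the annotation table could have none named in either count. In all 15 the lowest of the 6 libraries of d-galUA and glycerol was at least 7.54 times the highest d-glc library. RTO4_11093 (scaffold 15, 83441 to 84796, minus strand) led them with 309.5, 258 and 257 FPKM on d-galUA, 414, 347 and 416 FPKM on glycerol and 1.61, 1.90 and 2.56 FPKM on d-glc, so that the means were 136 times (d-galUA) and 194 times (glycerol) the d-glc mean. On the log2(FPKM + 1) scale its differences were 6.52 ± 0.14 on d-galUA and 7.03 ± 0.14 on glycerol (± SE). A pseudocount understates them, since the d-glc level was close to it.

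RTO4_16717 (scaffold 9, 999167 to 1002495, plus strand) combined a large ratio with a high level, at 972, 1014 and 819.7 FPKM on d-galUA, 1122, 1259 and 908 FPKM on glycerol and 7.98, 9.70 and 8.60 FPKM on d-glc. Its d-galUA and glycerol libraries overlapped, and its d-glc libraries were all under 10 FPKM. The means stood at 107 times (d-galUA) and 125 times (glycerol) the d-glc mean.

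RTO4_13825 (scaffold 5, 132835 to 135021, minus strand) had 394, 412 and 373 FPKM on d-galUA, 719, 820.1 and 722 FPKM on glycerol and 3.81, 2.19 and 5.06 FPKM on d-glc. It was close to the limit of the rule on the gap between d-galUA and glycerol, with every glycerol library above every d-galUA library, and the means were 107 times (d-galUA) and 204 times (glycerol) the d-glc mean. RTO4_9938 (scaffold 11, 617747 to 619889, minus strand) had the opposite order, with 498, 432 and 432 FPKM on d-galUA, 370.4, 407 and 403 FPKM on glycerol and 3.04, 5.23 and 4.35 FPKM on d-glc, and ratios of 108 times (d-galUA) and 93.5 times (glycerol). In these 4 genes and RTO4_10184, the lower ratio was above 50.

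RTO4_12777 (lower ratio 40.4), RTO4_10713 (29.3), RTO4_9112 (25.2) and RTO4_10720 (20.8) followed. RTO4_12777 had 279, 260.2 and 286 FPKM on d-galUA, 477, 438 and 418 FPKM on glycerol and 4.10, 9.46 and 6.86 FPKM on d-glc. RTO4_10720 had 112, 108 and 98.3 FPKM on d-galUA, 219.8, 188 and 189.9 FPKM on glycerol and 4.62, 3.77 and 6.89 FPKM on d-glc, almost 2-fold higher on glycerol than on d-galUA. RTO4_9112 was low throughout and the least transcribed on d-glc of all 91, with means of 25.5 ± 2.89 FPKM on d-galUA, 22.1 ± 2.48 FPKM on glycerol and 0.877 ± 0.0376 FPKM on d-glc.

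RTO4_8462, RTO4_12712, RTO4_10711, RTO4_9339 and RTO4_10804 completed the 15, with lower ratios of 19.9, 19.4, 17.4, 15.6 and 15.1. RTO4_9339 (scaffold 10, 104337 to 107412, minus strand) was the most highly transcribed gene of the group, at 3684, 3834 and 3524 FPKM on d-galUA, 3596, 4448 and 3037 FPKM on glycerol and 243, 220.2 and 245 FPKM on d-glc. By mean level it ranked 14 among all 8578 gene models on d-galUA and 10 on glycerol, against 470 on d-glc. RTO4_10804 had 634, 614 and 634 FPKM on d-galUA, 762, 914 and 757 FPKM on glycerol and 34.9, 49.8 and 39.9 FPKM on d-glc, with a span that overlaps a model on the opposite strand by 167 bp. RTO4_10711 had the widest relative spread of the 15 on d-glc, at 2.19, 1.01 and 0.657 FPKM.

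Another 59 genes are not named by these criteria. Their means ran between 11.8 and 633 FPKM on d-galUA, between 10.01 and 789 FPKM on glycerol and between 1.46 and 147 FPKM on d-glc. Their lower ratios lay between 3.04 and 14.9, with a median of 4.53. The smallest ratio between the lowest of the 6 libraries of d-galUA and glycerol and the highest d-glc library was 1.66, and over all 91 genes this ratio was at least 2 in 86 and at least 3 in 62.

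The threshold of 3 parted genes with almost equal values. Just inside it were RTO4_16834 with a lower ratio of 3.00, RTO4_10443 with 3.01 and RTO4_13926 with 3.04. Just outside it, with all other conditions met, were RTO4_12555 with 2.999, RTO4_8636 with 2.95 and RTO4_10456 with 2.95. RTO4_12555 is the ortholog of FAA2, a peroxisomal acyl-CoA synthetase.

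Between d-galUA and glycerol, 41 genes had the higher mean on d-galUA and 50 on glycerol, with a median d-galUA to glycerol ratio of 0.970 and extremes of 0.506 and 1.87 that the rule bounds. In 25 genes each d-galUA library was above each glycerol library, in 32 the reverse held, and in 34 the libraries overlapped. The same counts over all genes were not taken, so nothing particular to the group is read from these. A gap of more than 1.5-fold was seen in 7 genes towards d-galUA and in 20 towards glycerol.

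The libraries of d-glc varied more in these genes than those of the other sources. The median coefficient of variation of the 91 genes was 6.15% on d-galUA, 10.1% on glycerol and 24.2% on d-glc, beside 5.81%, 9.60% and 15.9% over all numbered genes with a mean of at least 1 FPKM on the source. Among the d-glc libraries, D-glucose 1 was the lowest for 57 genes and D-glucose 2 the highest for 54. Leaving out D-glucose 1 the rule gave 83 genes, and leaving out D-glucose 2 it gave 105, of which 80 and 90 were among the 91.

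The selection was repeated on part of the libraries so that the others could be read as values it had not used. From D-galUA 1 and 2, Glycerol 1 and 2 and D-glucose 1 and 2, the rule chose 90 genes, 83 of them among the 91. In the held-out libraries, D-galUA 3, the library labelled D-glucose 4 and D-glucose 3, all 90 were higher in the first 2 than in the last, by a median of 5.03 times and at least 1.65 times. A ratio of at least 3 was met again by 74 genes (82.2%), beside 5.53% of all numbered genes. It was met by 1.89% of the 4760 genes at least 10 FPKM and less than 2-fold apart on d-galUA and glycerol in the choosing libraries. The chosen genes also meet the condition of these 4760, so the shares are not independent. With D-galUA 1, Glycerol 1 and D-glucose 1 held out, no held-out library goes against its label. The library labelled D-glucose 4 is then among the choosing libraries, counted as glycerol. Here 75 of 81 genes (92.6%) met the ratio again, beside 7.81% of all numbered genes and 3.00% of the 4770 genes alike on d-galUA and glycerol. Each reading rests on 1 held-out library per source, from cultures of 1 inoculum. The genes are not replicates, so these shares are a description.

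The 91 genes, out of 8486 numbered models, were spread over 17 scaffolds. Scaffolds 12 and 2 held 10 each, or 2.75% of the 363 and 1.23% of the 813 numbered models there. Their median span was 1825 bp, beside 1783 bp over all numbered models. The span of 19 genes (20.9%) overlapped another gene model, on the opposite strand for 9, against 24.3% of all numbered models. Since it is not given in the sources used here whether reads were assigned by strand, the values of overlapping models are uncertain where they share bases.

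Of the 91 genes, 6 (6.59%) were next to another of the group, against 2.12% of all numbered models next to a member. RTO4_11093 and RTO4_11094 lie on the minus strand of scaffold 15, overlap by 141 bp and differed in size of effect, with RTO4_11094 at 114, 122 and 111 FPKM on d-galUA, 172, 213 and 153 FPKM on glycerol and 13.7, 29.5 and 18.6 FPKM on d-glc. The models on either side were not in the group, with means in FPKM of 33.4 on d-galUA, 29.2 on glycerol and 42.6 on d-glc for RTO4_11092 and of 1.39 on d-galUA, 1.62 on glycerol and 0.535 on d-glc for RTO4_11095. RTO4_11095 was also lower on d-glc in every library than on the other sources, at a level under 3 FPKM throughout, while RTO4_11092 overlapped between sources.

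RTO4_9325 and RTO4_9326, on the plus strand of scaffold 10, overlap by 20 bp. RTO4_9325 had 57.5 ± 5.35 FPKM on d-galUA, 35.9 ± 0.684 FPKM on glycerol and 9.53 ± 0.165 FPKM on d-glc, and RTO4_9326 had 21.7 ± 1.17 FPKM on d-galUA, 12.97 ± 2.14 FPKM on glycerol and 1.39 ± 0.597 FPKM on d-glc, both higher on d-galUA than on glycerol. RTO4_12243 and RTO4_12244, on scaffold 2, are divergent and 425 bp apart. They were similar to each other in every source, at 12.4 ± 0.797 FPKM on d-galUA, 10.7 ± 0.902 FPKM on glycerol and 1.66 ± 0.141 FPKM on d-glc for RTO4_12243 and 14.95 ± 1.21 FPKM on d-galUA, 11.1 ± 2.13 FPKM on glycerol and 1.51 ± 0.198 FPKM on d-glc for RTO4_12244.

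Within 3 places of another member were 16 genes (17.6%), against 6.13% of all numbered models within 3 places of a member. RTO4_10711 and RTO4_10713, both among the 15 largest ratios, are separated by RTO4_10712, whose means were 0.700 on d-galUA, 0.633 on glycerol and 0.162 on d-glc FPKM. RTO4_10184 (JEN1) is 3 places from the member RTO4_10187, with means of 73.8 on d-galUA, 112 on glycerol and 17.9 on d-glc FPKM, and the models between them were at 4.52 on d-galUA, 13.1 on glycerol and 6.27 on d-glc for RTO4_10185 and at 0.526 on d-galUA, 1.34 on glycerol and 0.125 on d-glc for RTO4_10186. RTO4_12774, at 633 on d-galUA, 503 on glycerol and 116 on d-glc FPKM, and RTO4_12777 have RTO4_12775 and RTO4_12776 between them, which were higher on d-galUA and glycerol than on d-glc as well, at 36.05 on d-galUA, 18.4 on glycerol and 9.95 on d-glc and at 9.20 on d-galUA, 4.22 on glycerol and 1.38 on d-glc FPKM. These positions are a description, and no test of clustering was made.

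**Figure D4:**
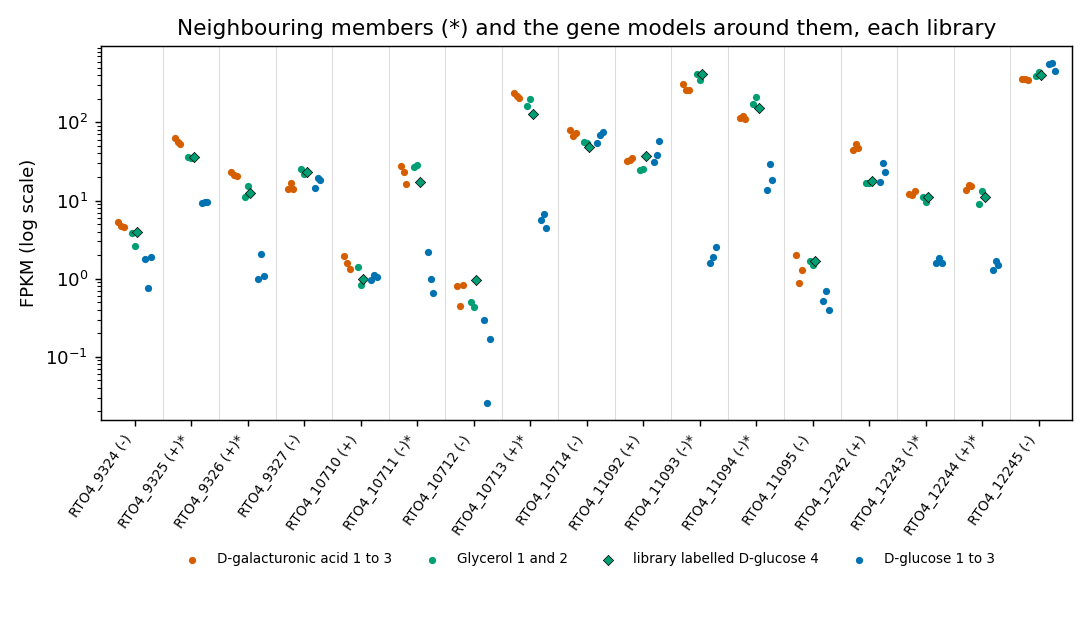
FPKM (log scale) in each library of neighbouring selected genes (marked by an asterisk, with the strand in brackets) and of the models around them, in their order along 4 scaffold regions. Orange points are d-galUA, green points glycerol, the green diamond the library labelled D-glucose 4 and blue points d-glc. The marked genes have their blue points well below the others, those of the unmarked RTO4_9324, RTO4_10712 and RTO4_11095, with levels under 10 FPKM, also lie below, and those of the other 6 unmarked models do not.

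To place the genes with an ortholog among the other genes of their pathways, 13 lists of S. cerevisiae gene names were matched to the annotation, which gave 143 genes. The lists can hold only genes in the annotation table, nearly all of them at 50 FPKM or more on d-galUA, which by itself favours genes higher on d-galUA. Among the 1954 annotated genes outside the group, 13.2% were called higher and 5.02% lower in the comparison of d-galUA with d-glc, and 8.96% were called higher and 9.47% lower in that of glycerol with d-glc. Counts below leave out the 91 genes, and calls are by limma with Benjamini-Hochberg adjustment over all 8479 genes. Counts at unadjusted p under 0.05 (limma) in these lists drop the fold and FPKM criteria as well. With the labels as they stand, the glycerol comparison had a single gene called higher among all genes and none lower.

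Uptake of carboxylates, peptides and amino acids was the list whose other genes were most often called. Beside RTO4_10184 and RTO4_16031, 5 of 6 were called higher on d-galUA and 6 of 6 on glycerol, with median log2 differences of 3.53 and 2.43. RTO4_9962, an ortholog of DIP5, the permease for glutamate and aspartate, averaged 240.4 ± 14.4 FPKM on d-galUA, 489.8 ± 63.3 FPKM on glycerol and 2.50 ± 0.393 FPKM on d-glc (limma adjusted p = 2e-10 on d-galUA and 1.3e-10 on glycerol). It missed the group only because its glycerol mean was over 2-fold above its d-galUA mean. RTO4_12221, the ortholog of TNA1, a nicotinic acid permease, averaged 177 ± 14.6 FPKM on d-galUA, 448 ± 32.3 FPKM on glycerol and 4.06 ± 0.558 FPKM on d-glc. RTO4_8962, also listed with DIP5, averaged 181 ± 8.86 FPKM on d-galUA, 388 ± 36.6 FPKM on glycerol and 43.3 ± 10.96 FPKM on d-glc. RTO4_14229, listed with CAN1, GAP1 and other amino acid permeases, was much higher on d-galUA, at 211 ± 11.8 FPKM on d-galUA, 20.5 ± 2.02 FPKM on glycerol and 5.74 ± 1.29 FPKM on d-glc. RTO4_13824, listed with the acetate transporter genes ADY2 and ATO2 and named here because its model stands beside the member RTO4_13825, averaged 414 ± 35.6 FPKM on d-galUA, 450.0 ± 17.8 FPKM on glycerol and 151 ± 6.31 FPKM on d-glc. Calls within this list were the same when each library was left out in turn, within 1.5 times, and with the labels as they stand they fell to 1 of 6 on d-galUA and 0 of 6 on glycerol.

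Peroxisomal fatty acid oxidation had no member of the group. Of its 7 genes, 3 were called higher on d-galUA and 4 on glycerol, and none lower. At unadjusted p under 0.05 (limma), without the fold and FPKM criteria, 6 were higher on each source and 0 lower. The gene just outside the threshold, RTO4_12555 (FAA2), averaged 73.6 ± 2.63 FPKM on d-galUA, 63.1 ± 6.33 FPKM on glycerol and 21.03 ± 7.30 FPKM on d-glc (limma adjusted p = 5.1e-05 on d-galUA and 0.0001 on glycerol). RTO4_14061, the ortholog of PEX11, which acts in peroxisome proliferation, averaged 210.1 ± 6.09 FPKM on d-galUA, 241 ± 22.5 FPKM on glycerol and 91.9 ± 18.7 FPKM on d-glc.

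Genes of the citric acid cycle were called in both directions. Of 15 outside the group, 3 were called higher and 1 lower on d-galUA, and 1 was called higher and 2 lower on glycerol, with median log2 differences of -0.12 and -0.44. RTO4_11802, listed with the succinate dehydrogenase subunit gene SDH4, was higher on both sources, at 107 ± 5.87 FPKM on d-galUA, 117 ± 12.7 FPKM on glycerol and 51.9 ± 22.3 FPKM on d-glc. The count of genes higher on d-galUA was 1 without D-glucose 2. Those on glycerol ran between 0 without D-glucose 2 and 2 without D-glucose 1 or D-glucose 3, and the genes lower on glycerol were 1 without Glycerol 2.

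Among genes of acetyl-CoA supply other than RTO4_14597, 2 of 11 were called higher and 0 lower on d-galUA (2 lower by unadjusted p under 0.05 alone), and 1 was called higher and 1 lower on glycerol. RTO4_12042, listed with the aldehyde dehydrogenase genes of the ALD family, which make acetate, averaged 439 ± 31.4 FPKM on d-galUA, 642 ± 23.4 FPKM on glycerol and 154 ± 48.3 FPKM on d-glc. In the glyoxylate shunt and gluconeogenesis list, which holds no member, 2 of 6 genes were called higher on d-galUA and 1 lower on glycerol. Among them, RTO4_12605, the ortholog of the mitochondrial succinate-fumarate carrier gene SFC1, went opposite ways, at 192 ± 0.819 FPKM on d-galUA, 6.83 ± 0.776 FPKM on glycerol and 17.7 ± 3.90 FPKM on d-glc. In lactate oxidation, 1 of 3 genes was called higher on each source and 1 lower on glycerol. RTO4_16607, the ortholog of CYB2, which oxidises L-lactate, was the gene called higher on both, at 78.6 ± 4.05 FPKM on d-galUA, 35.5 ± 1.10 FPKM on glycerol and 16.1 ± 5.47 FPKM on d-glc. Without D-glucose 1 it was not called on glycerol.

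Of 8 genes for UDP-glucose, glycogen and trehalose other than RTO4_11752, 2 were called higher on d-galUA and the same number on glycerol, and none lower, also at unadjusted p under 0.05. These were RTO4_9959, listed with the phosphoglucomutase genes PGM1 and PGM2, at 202 ± 12.9 FPKM on d-galUA, 225 ± 20.8 FPKM on glycerol and 82.5 ± 17.3 FPKM on d-glc, and RTO4_12594, the ortholog of the glycogen branching enzyme gene GLC3, at 99.8 ± 4.83 FPKM on d-galUA, 175 ± 8.83 FPKM on glycerol and 34.8 ± 10.6 FPKM on d-glc. Without D-glucose 2 the count on glycerol was 4.

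Glycolysis had no member and no gene called higher on either source (2 on each at unadjusted p under 0.05 by limma). Called lower were 4 of 11 genes on d-galUA against 0 of 11 on glycerol (8 and 4 at unadjusted p under 0.05). The respiratory chain and ATP synthase, also without a member, had 1 of 23 genes called higher and 1 lower on d-galUA. At unadjusted p under 0.05 (limma) 5 were higher and 2 lower there. On glycerol 0 were called higher and 1 lower (1 higher and 10 lower at unadjusted p under 0.05). The gene lower in both was RTO4_8972, listed with the external NADH dehydrogenase genes NDE1 and NDE2, at 143 ± 6.56 FPKM on d-galUA, 124 ± 7.48 FPKM on glycerol and 588 ± 147 FPKM on d-glc.

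Beside the vacuolar exchanger RTO4_9287, 4 of 14 genes for metal and ion transport were called higher and 3 lower on d-galUA, and 2 were called higher and 5 lower on glycerol. Another ortholog of VCX1, RTO4_15553, averaged 216 ± 1.64 FPKM on d-galUA, 214 ± 12.5 FPKM on glycerol and 86.8 ± 9.46 FPKM on d-glc. RTO4_15907, named here because it is also listed with VCX1, was called higher on d-galUA only. It averaged 62.9 ± 3.78 FPKM on d-galUA, 21.1 ± 2.79 FPKM on glycerol and 31.4 ± 3.98 FPKM on d-glc. RTO4_8631, the ortholog of the vacuolar calcium pump gene PMC1, averaged 103 ± 6.63 FPKM on d-galUA, 119 ± 8.14 FPKM on glycerol and 43.98 ± 9.16 FPKM on d-glc. The genes for high-affinity iron uptake went the other way. RTO4_15844, the ortholog of the iron permease gene FTR1, averaged 203 ± 31.3 FPKM on d-galUA, 8.34 ± 3.34 FPKM on glycerol and 836 ± 46.3 FPKM on d-glc, and RTO4_9364, listed with the multicopper oxidase genes FET3 and FET5, averaged 243 ± 24.5 FPKM on d-galUA, 35.1 ± 1.61 FPKM on glycerol and 1222 ± 96.6 FPKM on d-glc.

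Of 12 other genes for peroxide and glutathione metabolism, 2 were called higher on d-galUA, and 1 was called higher and 1 lower on glycerol. RTO4_10811, named here as another ortholog of CCP1, was called higher on glycerol only. It averaged 68.2 ± 2.23 FPKM on d-galUA, 116 ± 15.8 FPKM on glycerol and 45.0 ± 5.77 FPKM on d-glc. Of 10 other peptidases, 3 were called higher on d-galUA and 1 lower on glycerol, with none higher there (5 at unadjusted p under 0.05 by limma). RTO4_9594, named here as another ortholog of FRA1, was called higher on d-galUA only. It averaged 180 ± 7.97 FPKM on d-galUA, 93.0 ± 6.85 FPKM on glycerol and 75.5 ± 13.2 FPKM on d-glc. Of 6 other genes for purine and pyrimidine salvage, 1 was called lower on d-galUA and 2 on glycerol, and none higher (1 on d-galUA and 0 on glycerol at unadjusted p under 0.05). RTO4_14558, listed with the purine and cytosine permease gene FCY2, was lower on both, at 93.3 ± 4.17 FPKM on d-galUA, 147 ± 17.2 FPKM on glycerol and 303 ± 83.9 FPKM on d-glc.

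**Figure D5:**
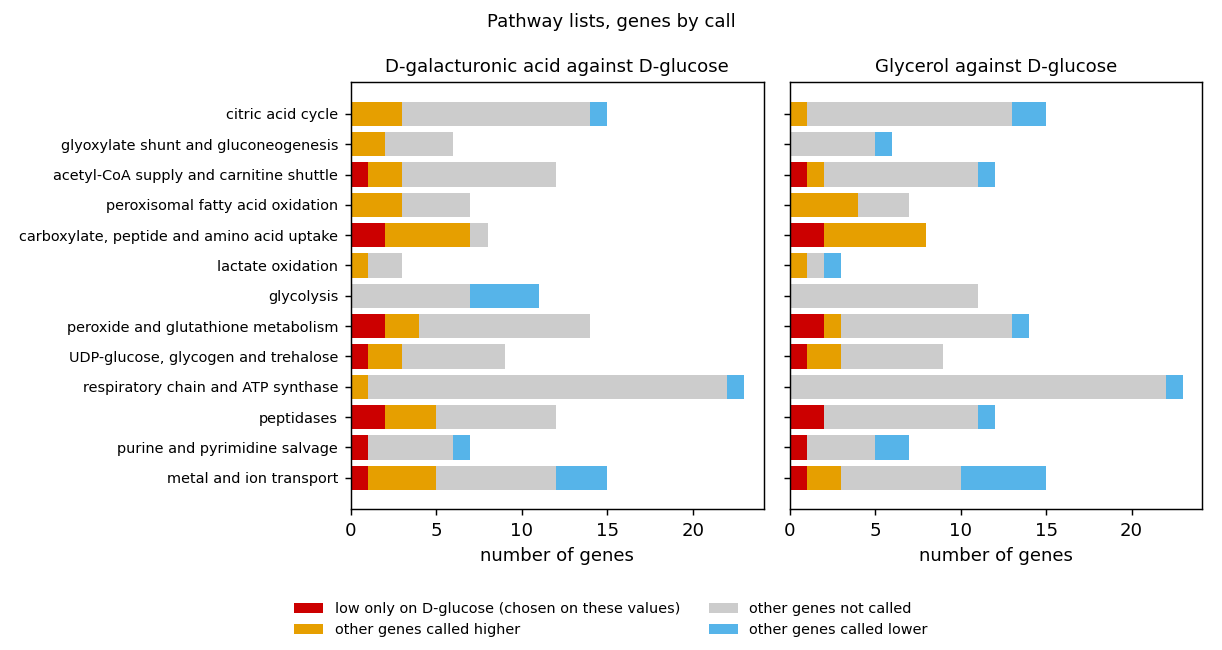
Number of genes (horizontal) in each of the 13 pathway lists by call, for d-galUA against d-glc (left) and glycerol against d-glc (right). Red marks selected genes, orange other genes called higher, grey those not called and blue those called lower than on d-glc. Orange fills 5 of 6 and 6 of 6 of the other uptake genes, while grey prevails in the citric acid cycle and the respiratory chain.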

How the data were processed

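Libraries were those of mRNA of R. toruloides IFO0880 on d-galUA, glycerol or d-glc, 3 per source. The authors prepared them with TruSeq chemistry after bead selection of mRNA and sequenced 50-bp single-end reads, and the submitters' processing notes name bcl2fastq 2.17, HISAT2 2.1.0 and StringTie 1.3.3b. The deposited FPKM is a read abundance per gene length and per amount of reads mapped in that library, and the TPM deposited by the authors is the same estimate scaled to an equal total in each library. The deposited coverage is the mean read depth over a gene, and was used with FPKM to work out mapped reads. The use of strand and the handling of reads with several matches are not given in the sources used here. No read counts were used, so counting intervals were not computed. The labels name another RNA extraction kit than the methods of the study.

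Means and SDs were taken over 3 libraries, and log2(FPKM + 1) of 8479 gene models with a value above 0 was fitted with limma 3.58.1 in R 4.3.3, with an intensity trend, over all 9 libraries. A gene was called at an adjusted p of 0.05 (Benjamini-Hochberg), a 2-fold ratio of means and a higher mean of at least 5 FPKM. A fold change on this scale understates the change of low genes. The fit was tested on simulated data. Python 3.11.15 and pandas 2.3.3 did the rest. The genes, the pathway lists and the tests were chosen with earlier results of these data known. Named are members with an ortholog, the 15 with the highest lower ratio, the 5 with the highest lower mean, members next to a member, 3 genes on each side of the ratio threshold, and up to 4 other genes of each list called in both comparisons. Orthologs are those of the annotation table of the study, whose values were used only to match libraries to sources. Deviations of the same-numbered libraries of different sources correlated at r between -0.14 and 0.20. The fitness profiling data of the study and the genome sequence were not used here, nor was the gene table of another strain. A gene that these criteria would name is not reported here. Alternatives changed the pseudocount, filters, thresholds, scaling and libraries.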

Additional observations from a re-analysis of the deposited data

Results flagged for a closer look

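Among the 4 libraries labelled d-glc, the library labelled D-glucose 4 stood apart from the others in the 91 genes. They held 2.79% of its transcripts (TPM), against 0.340%, 0.405% and 0.324% in D-glucose 1 to 3, and their median level was 55.7 FPKM. In 76 of the 91 genes the gap between this library and the nearest of the other 3 was a larger part of the range than the 95% critical value of Dixon's test for 4 samples, and this library was the highest in all 76. The rule counted this library with glycerol and chose genes by their gap to D-glucose 1 to 3, so these values were largely set by the choice and are a description. Over 8387 numbered models with a value above 0 in these libraries the share was 13.3%. Chance alone exceeds this value in about 1 of 20 groups. The cause was not tested.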

How the results depend on the processing

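With the labels as they stand the rule found 13 genes in place of 91. In that setting limma called 417 genes higher and 359 lower on d-galUA in place of 699 and 631. On glycerol it called 1 higher and 0 lower in place of 763 and 832. At unadjusted p under 0.05 (limma), with the fold and FPKM criteria kept, 359 were higher and 576 lower there. Of 40 results for genes named outside the group by the criteria above, 34 lost an adjusted p under 0.05 (limma) in this setting. None did so in another setting tried for them. Without the library labelled D-glucose 4 the counts were 698, 630, 725 and 845, and the rule gave 89 genes. The order of these counts, here and below, is higher and lower on d-galUA, then higher and lower on glycerol. Without a fold criterion they were 1798, 2006, 2019 and 2019, and with a 3-fold criterion 366, 309, 413 and 415. Leaving out each library in turn gave 631 to 764, 621 to 652, 687 to 855 and 800 to 882 genes, and 83 to 105 genes by the rule. A ratio of 2 in the rule gave 208 genes and a ratio of 4 gave 59. TPM gave 101 genes by the rule and median-of-ratios scaling 90, of which 90 and 89 were among the 91. With the replicate number of the labels as a block the counts were 698, 628, 756 and 819. Correlations of deviations between same-numbered libraries lay between -0.14 and 0.20. They cannot show whether cultures were handled in matched sets. The held-out share was 82.2% and 92.6%. No log2 difference of a gene named by the criteria above changed sign under any of the 13 settings tried for it. Depth is known only through coverage, which limits what can be said of genes near 1 FPKM.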
